A study of Mus musculus with 9 samples.

Results

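The genes that build cholesterol and fatty acids were followed in 4T1, a triple-negative mouse mammary carcinoma line, and in MR20 and DR500, the lines obtained from it by chemotherapy. The set has 30 genes: 16 enzymes of sterol synthesis, the sterol carrier Stard4, 5 regulators of the SREBP system and 8 enzymes of fatty acid synthesis. They were chosen by name from textbook pathways, with earlier results of these data known. A gene was taken where a probe set named it alone, and all 30 were found among 19938 named genes. Each gene is represented by its brightest probe set over the 9 arrays, and its older symbols were matched by Entrez identifier.

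Each line was measured with 3 Affymetrix whole-transcript mouse arrays, 1 per culture well, and the values are log2 expression values after robust multi-array normalization (RMA). 4T1 cells were untreated. MR20 cells are the pooled survivors of methotrexate (MTX), a folate antagonist, at a dose of 20 µg/ml in the labels and of 20 ng/ml in the study's text, and they were grown without drug for 2 weeks before RNA extraction. DR500 cells are the pooled survivors of doxorubicin (DOX), an anthracycline, raised in steps up to 500 ng/ml, and some label fields name methotrexate for them instead. The methods give the same 2 weeks of drug-free recovery for both lines. The 4T1 arrays are described as a culture grown beside MR20. The DR500 protocol names 4T1 controls extracted with DR500, and no sample used here is labelled as one of these, so every DR500 difference is against the 4T1 arrays of MR20, and for DR500 culture batch and line cannot be told apart. The labels call the 4T1 and MR20 arrays biological replicates and the DR500 arrays samples, from triplicate wells, with 1 selection described for each line, so the p-values measure the spread between these samples, which may be technical.

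Cholesterol is made from acetyl-CoA through mevalonate, isoprenoid units, squalene and lanosterol. SREBP transcription factors switch these genes on when sterol in the endoplasmic reticulum is low, because SCAP then escorts them to the Golgi for cleavage, while INSIG proteins hold SCAP back when sterol is plentiful. SREBP2 acts mainly on sterol genes and SREBP1 mainly on fatty acid genes, in which ACLY, acetyl-CoA carboxylase and fatty acid synthase build saturated chains that elongases and desaturases then extend and desaturate.

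Members were mostly lower in both selected lines, and the branches differed in how far they shifted. In MR20 against 4T1, 20 of the 30 members fell and 4 rose at an adjusted p under 0.05 (limma, Benjamini-Hochberg over all genes), where 17.1% of all genes fell and 15.4% rose. In DR500 against 4T1, 22 fell and 2 rose, where 21.3% of all genes fell and 20.2% rose. All 30 members were among the 9969 brighter genes by their highest array, where a larger share passed. In a fit of these genes, 3404 fell and 3150 rose in MR20, among them 21 and 5 members. In DR500, 4045 fell and 3269 rose, among them 23 and 3 members. Over 2-fold changes of members in the main fit were all falls. They numbered 3 in MR20 (Insig1, Scd1 and Scd2), where 1.08% of all genes fell and 1.41% rose that far. In DR500 they numbered 8 (Hmgcs1, Idi1, Lss, Cyp51, Msmo1, Stard4, Insig1 and Fads2), where 3.09% of all genes fell and 2.47% rose that far. These are levels in bulk RNA, in which fewer cells of a kind and less RNA per cell cannot be told apart.

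The order of the branches was not alike in the lines. The median log2 difference from the 4T1 mean over the 16 sterol synthesis enzymes was -0.27, -0.31 and -0.42 in the MR20 arrays and -0.76, -0.80 and -0.79 in the DR500 arrays. Over the 8 fatty acid enzymes it was -0.70, -0.69 and -0.70 in MR20 and -0.46, -0.54 and -0.51 in DR500. All arrays of the selected lines thus lay below those of 4T1, which stayed between -0.03 and 0.04 in both branches. By these medians of the members the fatty acid enzymes were the lower branch in MR20, and the sterol enzymes in DR500. The 18 further fatty acid synthesis and elongation genes given below had medians of -0.11 in MR20 and 0.02 in DR500. For 4 further sterol genes the medians were -0.40 and -0.44. In MR20, 5 of the 8 fatty acid enzymes fell and 2 rose, while 11 of the 16 sterol enzymes fell and 1 rose. The median fold change of all genes was -0.01 in MR20 and 0.07 in DR500 on the log2 scale. The difference between branches was described only and was not tested.

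**Figure D1:**
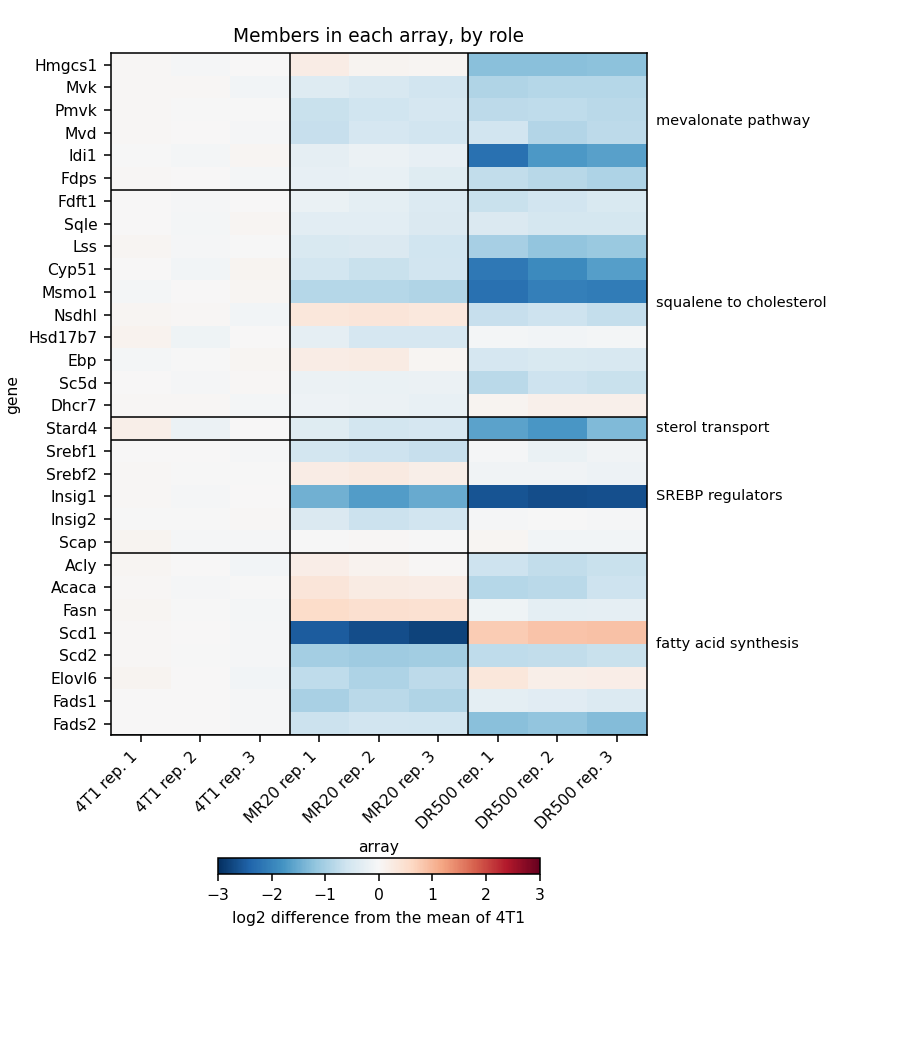
Colour shows the log2 difference of each of the 30 members (rows, grouped by role) from its mean in 4T1, in each of the 9 arrays (columns). DR500 columns are blue through the sterol enzymes except Hsd17b7 and Dhcr7, whereas the deepest blue of MR20 lies on Scd1, which is red in DR500.

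In the mevalonate pathway, which leads from acetyl-CoA units to farnesyl pyrophosphate, 4 of the 6 measured enzymes fell in MR20 and all 6 fell in DR500. Hmgcs1, the synthase that makes HMG-CoA, measured 9.89, 9.84 and 9.87 in 4T1, 10.09, 9.96 and 9.91 in MR20 and 8.62, 8.61 and 8.63 in DR500. The DR500 arrays lay more than 1 log2 unit under all others, and MR20 lay slightly above 4T1 without overlap. The fall in DR500 was -1.25 ± 0.06 (log2, SE, n = 3 per line, limma adjusted p = 8.31e-08), and the MR20 difference of 0.12 did not pass (adjusted p = 0.17).

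Idi1, the isomerase that turns isopentenyl pyrophosphate into dimethylallyl pyrophosphate, measured 10.18, 10.13 and 10.23 in 4T1, 9.92, 9.99 and 9.94 in MR20 and 7.95, 8.47 and 8.56 in DR500. One DR500 array lay about 0.5 below the others of its line, and all 3 lay far under 4T1. Its change was -1.86 ± 0.13 in DR500 (limma adjusted p = 1.55e-06) and -0.23 in MR20, which did not pass (adjusted p = 0.247). The same MR20 difference passed where the spread of DR500 entered less, at 0.00969 in a fit of 4T1 and MR20 alone and at 0.00823 without DR500 replicate 1. A second Idi1 probe set gave -1.82 and -0.24, with nearly the same values in each array. The kinases Mvk and Pmvk, the decarboxylase Mvd and the prenyl synthase Fdps fell in both lines. Their log2 changes were -0.48, -0.60, -0.59 and -0.28 in MR20 and -0.87, -0.79, -0.74 and -0.83 in DR500.

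From squalene to cholesterol, 7 of 10 enzymes fell and 1 rose in MR20, while 8 fell in DR500 and none rose, 1 doing so at an unadjusted p under 0.05. Msmo1, the oxidase that starts removal of the methyl groups at carbon C4, had the largest change of the 16 sterol enzymes in both lines. Its values were 11.31, 11.38 and 11.45 in 4T1, 10.52, 10.52 and 10.48 in MR20 and 9.15, 9.33 and 9.28 in DR500. The lines formed 3 separate steps, with 4T1 highest and DR500 lowest. Msmo1 fell by 0.87 ± 0.06 on the log2 scale in MR20 (limma adjusted p = 4.39e-06) and by 2.13 ± 0.06, or 4.37-fold, in DR500 (adjusted p = 2.88e-09).

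Cyp51, the demethylase that acts on lanosterol, measured 9.64, 9.54 and 9.71 in 4T1, 9.09, 8.96 and 9.05 in MR20 and 7.49, 7.73 and 7.97 in DR500. The steps were the same as for Msmo1, with a wider spread among DR500 wells. The changes were -0.60 ± 0.11 and -1.90 ± 0.11 (limma adjusted p = 0.00156 and 2.97e-07). Lss, which closes squalene epoxide into lanosterol, fell by 0.50 in MR20 and by 1.09 in DR500. Fdft1, the squalene synthase, and Sqle, the squalene epoxidase, fell less, by 0.30 and 0.36 in MR20 and by 0.57 and 0.50 in DR500.

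Nsdhl, the dehydrogenase that follows Msmo1 in the same demethylation, was the 1 sterol enzyme that rose in MR20. It measured 10.41, 10.38 and 10.26 in 4T1, 10.69, 10.71 and 10.66 in MR20 and 9.64, 9.72 and 9.63 in DR500. MR20 lay above 4T1 and DR500 below it, with no overlap among the lines. The changes were 0.34 ± 0.06 and -0.68 ± 0.06 (limma adjusted p = 0.00122 and 6.68e-06), and the direct difference of DR500 from MR20 was -1.03 ± 0.06 (adjusted p = 2.89e-07).

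The late enzymes were mixed. Hsd17b7, the reductase of the C4 demethylation, fell by 0.43 in MR20 but its DR500 difference was -0.06, with a 95% confidence interval of -0.24 to 0.12. Dhcr7, which makes cholesterol from 7-dehydrocholesterol, fell by 0.18 in MR20 (limma adjusted p = 0.033) and stood at 0.14 in DR500 (adjusted p = 0.0795), where it passed as a rise with dim genes filtered out (0.0271), after repeated quantile normalization (0.0242) and with trend and robust variances (0.0402). Its MR20 call was lost without any one of 4T1 replicates 1 and 2 and MR20 replicates 2 and 3, at adjusted p values up to 0.118. Ebp, the sterol isomerase, and Sc5d, the desaturase, fell by 0.49 and 0.70 in DR500, and their MR20 values of 0.18 and -0.18 had adjusted p values of 0.0528 and 0.0521. These were at the edge of the threshold, with Ebp passing under 4 alternatives (0.0144 to 0.0395) and Sc5d under 6 (0.00987 to 0.0474). Stard4, a carrier that moves sterol between membranes, fell by 0.46 in MR20 and by 1.56, or 2.95-fold, in DR500.

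**Figure D2:**
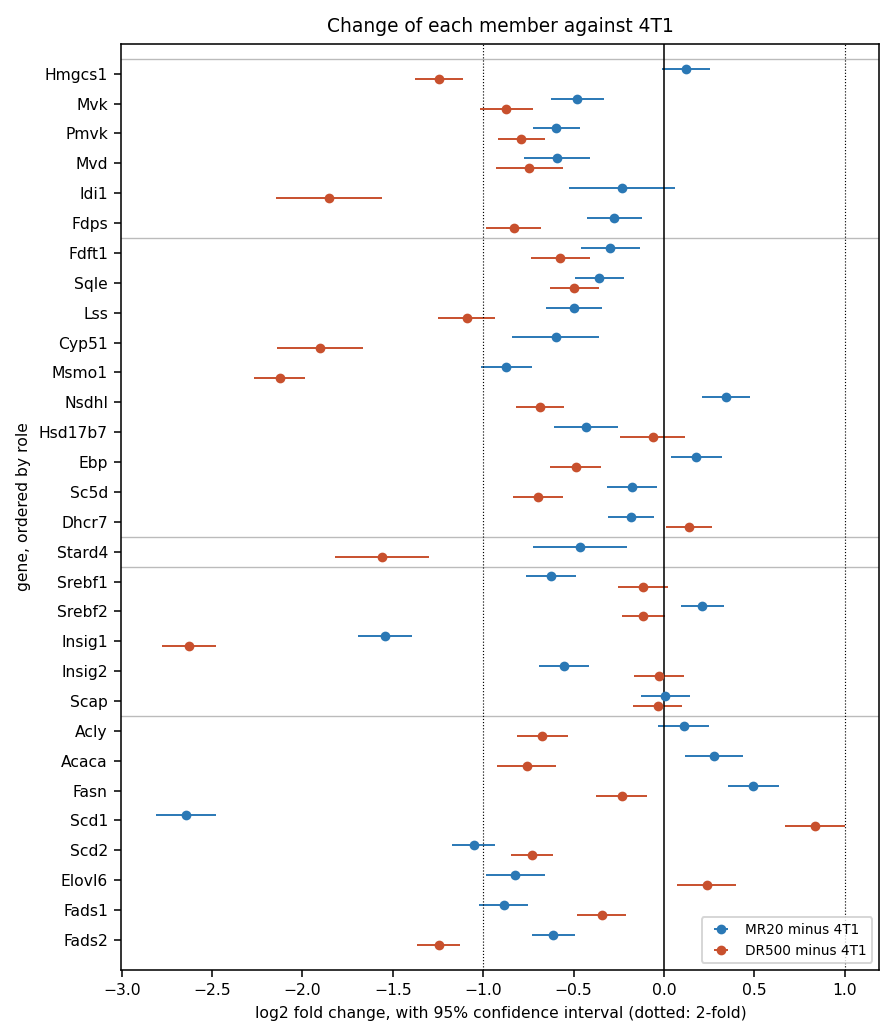
Points give the log2 fold change of each member against 4T1 in MR20 (blue) and DR500 (red), with 95% confidence intervals from limma (3 arrays per line) and dotted lines at 2-fold. In the top 16 rows DR500 mostly lies left of MR20, except at Hsd17b7 and Dhcr7, and in the fatty acid rows Scd1 lies at -2.64 in MR20 and 0.83 in DR500.

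Promoters of sterol enzymes often carry binding sites for SREBP beside sites for NF-Y, which binds CCAAT, and Sp1, which binds GC-rich boxes. RefSeq promoters on GRCm38.p6, from 250 bases before to 50 after the annotated start, were matched for 23 of the 30 members, with 31 promoters in all. Shown here are the 180 bases before the start of the 5 sterol enzymes that were over 2-fold lower in DR500, followed by the 2 that did not pass there, so that both kinds can be read side by side. Only promoters with a CCAAT match were taken for these windows. They are written 5′ to 3′ on the strand of the gene, and capitals mark CCAAT or its complement ATTGG and, in Hmgcs1, the match to the sterol regulatory element core TCACNCCAC. The windows are chr13:119690171-119690350 (+) for Hmgcs1, chr13:8885426-8885605 (+) for Idi1, chr10:76531425-76531604 (+) for Lss, chr5:4104698-4104877 (-) for Cyp51, chr8:64733579-64733758 (-) for Msmo1, chr1:169969206-169969385 (-) for Hsd17b7 and chr7:143830034-143830213 (+) for Dhcr7.
Hmgcs1: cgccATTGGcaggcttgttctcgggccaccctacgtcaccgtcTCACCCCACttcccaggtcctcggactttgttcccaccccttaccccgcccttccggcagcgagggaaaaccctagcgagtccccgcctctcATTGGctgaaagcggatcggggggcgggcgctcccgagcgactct
Idi1: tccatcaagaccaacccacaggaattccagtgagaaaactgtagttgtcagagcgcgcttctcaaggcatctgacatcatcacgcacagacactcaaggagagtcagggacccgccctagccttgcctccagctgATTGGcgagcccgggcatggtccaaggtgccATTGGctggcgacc
Lss: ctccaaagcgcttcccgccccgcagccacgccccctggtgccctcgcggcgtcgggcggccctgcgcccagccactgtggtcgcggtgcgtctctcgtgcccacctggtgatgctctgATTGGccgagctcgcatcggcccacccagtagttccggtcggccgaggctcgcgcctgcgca
Cyp51: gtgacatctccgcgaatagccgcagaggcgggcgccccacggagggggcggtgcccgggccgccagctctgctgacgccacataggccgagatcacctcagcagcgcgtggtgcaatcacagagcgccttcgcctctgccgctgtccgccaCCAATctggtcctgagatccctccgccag
Msmo1: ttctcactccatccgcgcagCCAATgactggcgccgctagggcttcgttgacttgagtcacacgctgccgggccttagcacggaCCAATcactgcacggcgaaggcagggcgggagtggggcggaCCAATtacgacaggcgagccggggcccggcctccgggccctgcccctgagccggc
Hsd17b7: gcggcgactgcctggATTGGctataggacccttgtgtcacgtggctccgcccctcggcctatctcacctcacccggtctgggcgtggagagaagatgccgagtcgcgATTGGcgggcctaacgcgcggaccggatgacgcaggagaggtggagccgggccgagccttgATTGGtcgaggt
Dhcr7: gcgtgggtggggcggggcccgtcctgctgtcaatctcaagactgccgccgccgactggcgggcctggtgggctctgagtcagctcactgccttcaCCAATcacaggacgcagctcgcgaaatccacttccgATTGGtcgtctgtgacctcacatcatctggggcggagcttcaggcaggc

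Matches on either strand were counted, each motif apart from the others. Only exact matches to the letters, with N as any base, were counted, so sites that differ from them were missed. CCAAT stood in at least 1 promoter of 13 of the 13 sterol enzymes matched and in 81.2% of their 16 promoters, against 37.4% of all 32851 promoters and 37.4% of the 19177 promoters of genes on the arrays. The GC box GGGCGG stood in promoters of 12 of these 13 genes and in 81.2% of the promoters, against 35.7% of all promoters and 49.2% of those of array genes. The SRE core was found in 1 sterol enzyme, Hmgcs1, at position -137 from the start, and in 1.24% of all promoters. Among 5 fatty acid enzymes, CCAAT stood in 2 and the GC box in 2, and none held the SRE core in this window. The windows shown were picked for a CCAAT match, so its presence in each of them was fixed in advance. Hsd17b7 and Dhcr7, which did not pass in DR500, hold it 3 and 2 times there. Another Dhcr7 promoter (chr7:143822917-143823216) held the GC box and no CCAAT. By gene, the box stood in at least 1 promoter both of enzymes that fell and of those that did not pass.

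**Figure D3:**
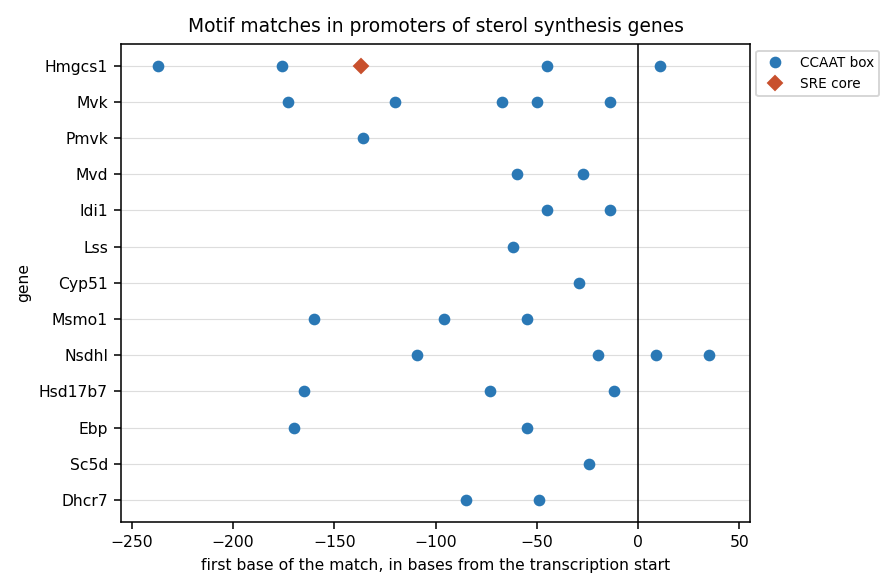
Points mark the first base of each CCAAT match (blue) and SRE core match (red) in the promoters of the 13 sterol enzymes matched, in bases from the annotated transcription start (line at 0). Every gene has a blue point before the start, and the 1 red point is at -137 in Hmgcs1.

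Of the 5 regulators, Insig1 alone fell in both lines, with the largest change of all members in DR500. INSIG1 is the protein that retains SCAP and is itself a well-known SREBP target. Insig1 measured 11.70, 11.65 and 11.68 in 4T1, 10.24, 10.00 and 10.17 in MR20 and 9.08, 9.02 and 9.05 in DR500. MR20 lay between the other lines, with no overlap. The log2 changes were -1.54 ± 0.07, or 2.91-fold lower, in MR20 and -2.63 ± 0.07, or 6.17-fold lower, in DR500 (limma adjusted p = 9.75e-08 and 9.6e-10), which placed Insig1 at rank 55 and rank 63 among falls of 19938 genes.

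The transcription factor genes themselves stayed within 2-fold of 4T1. Srebf1, which encodes the SREBP1 isoforms, measured 9.60, 9.59 and 9.55 in 4T1, 9.02, 8.96 and 8.88 in MR20 and 9.54, 9.38 and 9.46 in DR500. MR20 was the low line, at -0.62 ± 0.06 (limma adjusted p = 3.57e-05), and DR500 lay just under 4T1, at -0.12 (adjusted p = 0.169). Srebf2, which encodes SREBP2, measured 10.09, 10.03 and 10.04 in 4T1, 10.26, 10.32 and 10.22 in MR20 and 9.95, 9.95 and 9.91 in DR500. It rose by 0.21 ± 0.05 in MR20 (limma adjusted p = 0.0101), the line with the smaller shift of sterol enzymes, and its DR500 difference of -0.11 did not pass (adjusted p = 0.115). Insig2, the second retention protein, fell by 0.56 in MR20 and stood at -0.02 in DR500. Scap, the escort, had differences of 0.01 and -0.04, with intervals of -0.12 to 0.14 and -0.17 to 0.10. The arrays measure RNA, so the cleavage of SREBP proteins is outside these data.

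**Figure D4:**
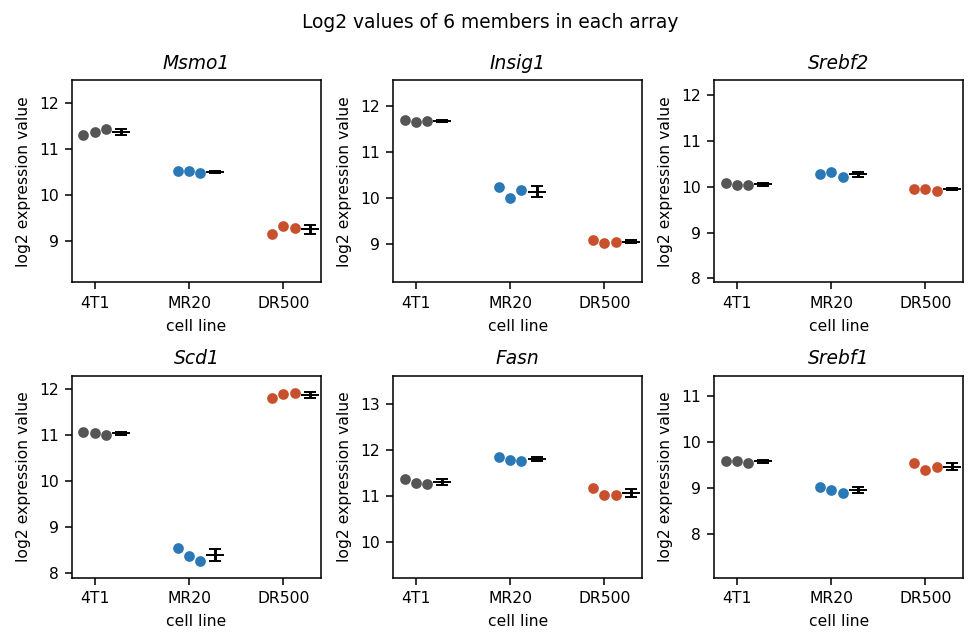
Points are the log2 values of 6 members in each array by line, with the mean and SD of 3 arrays drawn beside them. Msmo1 and Insig1 step down from 4T1 to MR20 to DR500, Scd1 is lowest in MR20 and highest in DR500, and Srebf2 and Fasn are highest in MR20.

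Fatty acid synthesis split by step. In MR20 the enzymes that build the chain were higher or did not pass, and the 5 that elongate or desaturate it all fell. Acly, which supplies cytosolic acetyl-CoA, stood at 0.11 in MR20 (limma adjusted p = 0.25). Acaca, the acetyl-CoA carboxylase, measured 9.76, 9.69 and 9.70 in 4T1, 10.09, 9.96 and 9.94 in MR20 and 8.87, 8.92 and 9.10 in DR500. Fasn, the fatty acid synthase, measured 11.37, 11.28 and 11.25 in 4T1, 11.84, 11.79 and 11.76 in MR20 and 11.16, 11.01 and 11.02 in DR500. Both genes were highest in MR20 and lowest in DR500, without overlap.

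Acaca rose by 0.28 ± 0.07 in MR20 (limma adjusted p = 0.0137) and Fasn by 0.50 ± 0.06 (adjusted p = 0.00017). In DR500, Acly fell by 0.67, Acaca by 0.76 and Fasn by 0.23. The Acaca rise was lost without 4T1 replicate 2 (adjusted p = 0.0518) or MR20 replicate 1 (0.0561), and the Fasn fall was lost without 4T1 replicate 1 (0.0532). A second Acaca probe set gave 0.22 in MR20 and -0.89 in DR500.

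Scd1, the desaturase that makes oleate from stearate, showed the widest contrast between the selected lines. It measured 11.06, 11.04 and 11.00 in 4T1, 8.54, 8.37 and 8.26 in MR20 and 11.79, 11.89 and 11.92 in DR500. MR20 lay more than 2 log2 units below 4T1 while DR500 lay above it. The changes were -2.64 ± 0.07, or 6.25-fold lower, in MR20, the 9th largest fall of all genes, and 0.83 ± 0.07, or 1.78-fold higher, in DR500 (limma adjusted p = 5.93e-09 and 8.05e-06). The direct difference of DR500 from MR20 was 3.48 ± 0.07, or 11.1-fold (adjusted p = 2.43e-10).

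The paralog Scd2 did not share this pattern. It measured 13.14, 13.10 and 13.08 in 4T1, 12.08, 12.03 and 12.05 in MR20 and 12.34, 12.37 and 12.43 in DR500, so both selected lines lay below 4T1. It fell by 1.05 in MR20 and by 0.73 in DR500. Elovl6, which elongates palmitate, measured 11.44, 11.38 and 11.28 in 4T1, 10.61, 10.45 and 10.58 in MR20 and 11.71, 11.54 and 11.56 in DR500. It was low in all MR20 wells, at -0.82 ± 0.07 (limma adjusted p = 1.67e-05). Its DR500 rise of 0.24 ± 0.07 (adjusted p = 0.025) was lost without 4T1 replicate 2 (0.0578), 4T1 replicate 3 (0.101) or DR500 replicate 1 (0.0771), which leaves Scd1 as the only rising member of DR500 in those fits.

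The desaturases of polyunsaturated fatty acids fell in both lines, in a different order. Fads1, the delta-5 desaturase, fell by 0.89 in MR20 and by 0.35 in DR500. Fads2, the delta-6 desaturase, measured 11.65, 11.64 and 11.60 in 4T1, 10.99, 11.05 and 11.02 in MR20 and 10.37, 10.45 and 10.34 in DR500. It fell by 0.61 ± 0.05 in MR20 and by 1.25 ± 0.05 in DR500 (limma adjusted p = 1.62e-05 and 4.36e-08), so DR500 was the lower line for Fads2 and MR20 the lower line for Fads1.

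Set directly against MR20, DR500 had 19 members lower and 8 higher at an adjusted p under 0.05, where 20.6% of all genes were lower and 21.2% higher. In a fit of the 9969 brighter genes, 3945 were lower and 3301 higher. Over 2-fold, 8 members were lower and 2 higher in the main fit, where 3.23% of all genes were lower and 2.87% higher. The lower members held 12 of the 16 sterol enzymes, led by Idi1 at -1.63, Hmgcs1 at -1.37, Cyp51 at -1.31 and Msmo1 at -1.26. The smallest of the 12, Pmvk at -0.19 (limma adjusted p = 0.021), lost its call without MR20 replicate 2 (0.0515) or 3 (0.0817), in a fit of the 2 lines alone (0.0533) and with trend and robust variances (0.0538). Of the fatty acid enzymes, Acly, Acaca, Fasn and Fads2 were lower, at -0.78, -1.04, -0.73 and -0.64. Scd1, Scd2, Elovl6 and Fads1 were higher, at 3.48, 0.32, 1.06 and 0.54. The other 4 higher members were Hsd17b7, Dhcr7, Srebf1 and Insig2, at 0.37, 0.32, 0.51 and 0.53. Mvd, Sqle and Scap did not pass, at -0.15, -0.14 and -0.04.

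Of 86 further lipid genes measured, 28 rose and 31 fell in MR20, and 38 rose and 27 fell in DR500, with median log2 changes of -0.03 and 0.11. Over all genes 15.4% rose and 17.1% fell in MR20, and 20.2% rose and 21.3% fell in DR500, and the lists below are small, so that a count such as 2 rises among 8 genes is near those shares. Among the 9969 brighter genes, 3150 rose and 3404 fell in MR20, and 3269 rose and 4045 fell in DR500. As shares, the MR20 counts of the 86 genes are near those of the brighter genes. All 4 further sterol genes that were measured, of 10 listed, fell in both lines, with medians of -0.40 and -0.44. Among them Lbr, the lamin B receptor with sterol reductase activity, fell by 0.47 in MR20, and Erlin1, a membrane protein of the complex that degrades sterol-pathway enzymes, fell by 0.81 in MR20 and 0.53 in DR500. Its partner Erlin2 fell by 0.47 in DR500. In the isoprenoid branch, 3 of 8 genes fell and 2 rose in MR20, and 6 fell and 2 rose in DR500. The farnesyltransferase subunit Fnta fell by 0.69 in MR20 and by 0.50 in DR500. Coq2 and Pdss2, both enzymes of ubiquinone synthesis, fell by 1.05 and 0.90 in DR500, and by 0.54 and 0.52 in MR20.

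Genes that process or degrade SREBP and its partners went both ways, with 5 of 10 rising and 3 falling in MR20 and 6 rising and 3 falling in DR500. Rnf139, an endoplasmic reticulum ubiquitin ligase, fell by 0.86 in MR20 and by 0.46 in DR500. Nploc4, a cofactor of the p97 segregase, rose by 0.67 in MR20 and by 0.34 in DR500. Sec24d, a cargo subunit of COPII vesicles, rose by 1.16 in DR500, where Paqr3, a Golgi anchor of the SCAP complex, fell by 0.74.

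The list of LXR factors and targets holds the receptors Nr1h3, Rxra and Rxrb beside targets, which answer to excess sterol. In DR500, 5 of its 8 genes rose (Rxra, Abca1, Abcg1, Mylip and Lpcat3) and none fell, with a median of 0.49. The receptors Nr1h3 and Rxrb fell there at an unadjusted limma p under 0.05. In MR20, 1 rose and 2 fell. Abca1, the exporter that loads cholesterol onto apolipoprotein, measured 5.56, 5.59 and 5.54 in 4T1, 5.36, 5.40 and 5.24 in MR20 and 7.54, 7.56 and 7.83 in DR500. In 4T1 and MR20 it lay below the median of the arrays, between 6.24 and 6.38, and in DR500 above it, and the fitted rise there was 2.08 ± 0.08 (limma adjusted p = 2.42e-08). Its 4T1 signal was not tested against background, so this fold may be a lower bound.

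Abcg1, its companion exporter, measured 7.86, 7.82 and 7.86 in 4T1, 6.79, 7.04 and 6.95 in MR20 and 8.64, 8.76 and 8.62 in DR500. It thus lay on opposite sides of 4T1 in the selected lines, at -0.92 ± 0.07 in MR20 and 0.83 ± 0.07 in DR500 (limma adjusted p = 6.89e-06 and 6.44e-06). Rxra, the partner receptor of LXR, rose by 0.66 in MR20 and by 0.55 in DR500. For sterol handling and storage, 7 of 13 genes rose and 2 fell in MR20, and 9 rose and 2 fell in DR500. Lipa, the lysosomal acid lipase, rose by 0.61 in MR20 and 1.51 in DR500. Gramd1b, which moves cholesterol from the plasma membrane, rose by 0.59 and 1.25.

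Beyond the members, 5 of 18 fatty acid synthesis and elongation genes rose and 8 fell in MR20, and 4 rose and 6 fell in DR500. Their median log2 changes were -0.11 and 0.02. The split by step of the members in MR20 did not extend to these genes. Of elongation, Elovl7 (0.24) and Hacd3 (0.26) rose in MR20, while Elovl5 (-0.15) and Tecr (-0.40) fell. Of genes that supply the synthesis, Acss2 (-0.49) and Slc25a1 (-0.33) fell there, while Me1 (0.37) rose. Mid1ip1, an activator of acetyl-CoA carboxylase, fell by 0.79 in MR20 and by 0.23 in DR500. The acyl-CoA synthetase Acsl5 fell by 0.16 in MR20 and by 0.86 in DR500, and the desaturase paralog Fads3 fell by 0.71 and 0.68. In triglyceride and phospholipid synthesis, 4 of 12 rose and 5 fell in MR20, and 5 rose and 4 fell in DR500. The choline kinase Chka fell by 1.20 and 1.29, and Plin2, a lipid droplet coat protein, rose by 0.71 and 1.26.

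Fatty acid oxidation held 4 rises and 4 falls among 13 genes in MR20, and 7 rises and 2 falls in DR500, with a median of 0.33 there. Cpt1a, the gatekeeper of mitochondrial fatty acid import, measured 9.17, 9.14 and 9.11 in 4T1, 9.57, 9.49 and 9.54 in MR20 and 10.58, 10.45 and 10.57 in DR500. It was highest in DR500, by 1.39 ± 0.06 (limma adjusted p = 2.96e-08). Slc25a20, the carnitine carrier, rose by 0.92 in DR500 and by 0.47 in MR20. Hadhb, a subunit of the trifunctional protein, fell by 0.69 in MR20 and by 0.30 in DR500. The receptor Ppard fell by 0.65 in MR20 and rose by 0.53 in DR500.

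**Figure D5:**
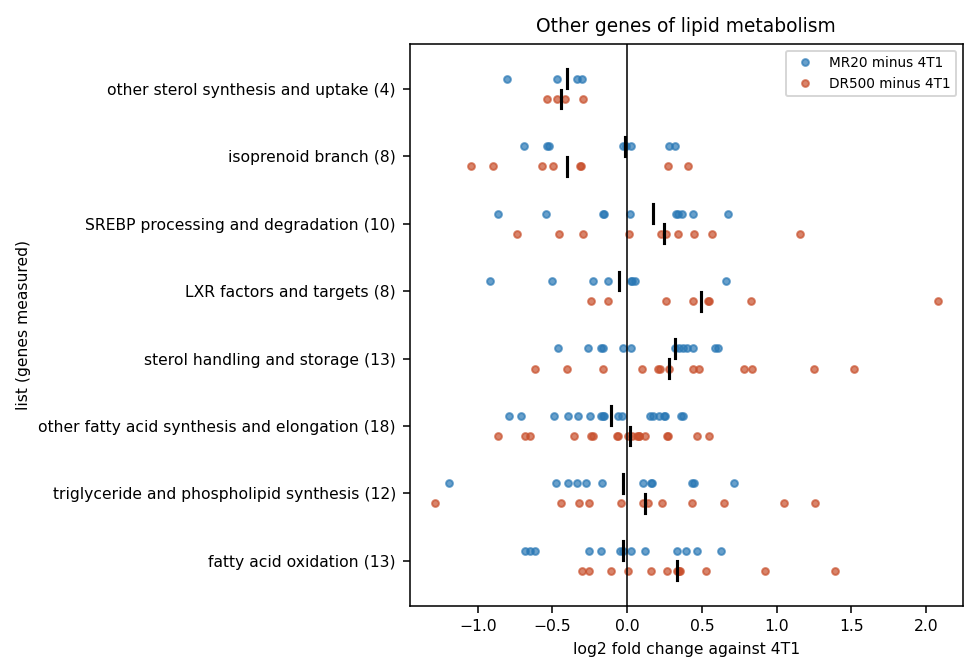
Each point is the log2 fold change of 1 further lipid gene against 4T1 in MR20 (blue) and DR500 (red), by list with the number measured, and black bars give the list medians. The sterol list lies wholly below 0, and the LXR list of DR500 has a median of 0.49 and reaches 2.08 at Abca1.

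The arrays also differed in markers of cell type. Of 10 epithelial markers, which a mammary carcinoma line should express, 9 fell in DR500, 8 of them over 2-fold: Epcam at -4.19, Cdh1 at -3.84, Krt19 at -2.37, Krt7 at -5.67, Cldn3 at -4.32, Cldn4 at -5.84, Cldn7 at -3.78 and Esrp1 at -5.46 (log2). In MR20 4 rose and 1 fell. Krt8, a defining keratin, stood at 0.03 in DR500. Summed on the linear scale, these markers ranged from 41685 to 43545 in 4T1, from 44528 to 45004 in MR20 and from 17720 to 19278 in DR500. The fibroblast sum was 963 to 1019, 698 to 766 and 4510 to 4911, with 3 of 8 markers rising in DR500, including Pdgfra (1.70) and Fbln1 (3.70). The DR500 sum rested mostly on Fbln1 and Pdgfra, with mean values of 11.64 and 10.07. The other 5 markers did not pass there, among them the collagens Col1a1 (0.17) and Col1a2 (0.18). The leukocyte sum was 1242 to 1334, 2959 to 3006 and 3636 to 4139, with 3 of 7 rising in each line, including Cd68 (1.23 and 2.30), Cd53 (4.35 in DR500) and Cd14 (1.42 in MR20). Ptprc, which defines leukocytes, measured 5.06 to 5.29 in all arrays, below the array medians.

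Of 6 adipocyte and 6 endothelial markers, 0 rose and 0 fell in either line by limma, 1 endothelial marker in DR500 having an unadjusted p under 0.05. Adipocyte sums of 278 to 307, 274 to 308 and 278 to 338 overlapped between the lines. The part of the epithelial and other marker shifts in the member changes was not tested. Arrays of a line correlated across genes at 0.995 to 0.999, and DR500 replicate 1, the array with the lowest Idi1, had the largest deviation from its line mean over all genes (root mean square 0.147, against 0.0751 to 0.122). Without it, 22 members fell and 1 rose in DR500.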

How the data were processed

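RNA of 3 wells each of 4T1, MR20 and DR500 was hybridized to Affymetrix whole-transcript mouse arrays. The deposited values are log2 expression values that the authors made by robust multi-array normalization (background correction, quantile normalization and probe summary) with the package affy; its version is not given in the sources used here. Only arrays of these 9 samples were used. Of 35556 probe sets, 21789 carried 1 gene symbol, and the brightest per gene left 19938 genes. Lines were compared with limma 3.58.1 (R 4.3.3) in one fit of 9 arrays with a mean per line (6 residual degrees of freedom), with Benjamini-Hochberg adjustment over all genes and a threshold of 0.05. The number of arrays limits the precision. An exact permutation test of 3 against 3 arrays cannot give a p below 0.1.

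The members and the lists of lipid and marker genes were chosen with earlier results of these data known. Named were all members, the 2 largest passing changes per lipid list and selected line, and marker genes over 2-fold. Krt8, Ptprc, Col1a1 and Col1a2 were chosen after their values were seen. So were the further fatty acid genes set beside the split by step, and the genes given for opposite changes in both lines. Of the listed lipid genes, 14 had no such probe set and were not analysed here. Promoters came from RefSeq (GRCm38.p6). Between lines, deviations of arrays with the same replicate number correlated at -0.309 to 0.327. Arrays of unlike number were not set beside these, so they cannot show whether the numbers pair the arrays. The main fit did not pair them.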

Additional observations from a re-analysis of the deposited data

Results flagged for a closer look

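In 21 of the members, further lipid genes and cell type markers, the changes of MR20 and DR500 against 4T1 each passed limma's adjusted threshold in opposite directions, and the direct difference of DR500 from MR20 passed as well. Of these 21, 5 were among the 30 members, 11 among the 86 further lipid genes and 5 among the markers. The share of all genes with such opposite changes was not counted, so these numbers cannot be set against it. Among the members Scd1 had the widest such difference, at 3.48 on the log2 scale (SE 0.07, adjusted p = 2.43e-10). Elovl6 followed the same direction, at 1.06, whereas the chain-building enzymes ran the other way, Acaca at -1.04 and Fasn at -0.73. Nsdhl was the 1 sterol synthesis enzyme of the members among them, at -1.03. Among the further lipid genes, the differences were 1.75 for the sterol exporter Abcg1, 1.32 for the vesicle coat gene Sec24d and 1.18 for the lipid-sensing receptor Ppard. They were 0.76 for Acss2, 0.68 for Osbpl9, 0.57 for Dgat2, 0.54 for Nceh1, 0.52 for Hadha and 0.43 for Elovl5, and -0.63 for Nus1 and -0.90 for Elovl7. Among the markers, they were -5.90 for Krt7, -3.05 for Krt19, -0.57 for Krt18, 2.33 for Pdgfra and 4.70 for Fbln1. The rises of Acaca in MR20 and of Elovl6 in DR500, and the fall of Fasn in DR500, each lost their call when some single array was left out. The cause of these differences was not tested.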

How the results depend on the processing

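Results were recomputed under 8 alternatives and with each of the 9 arrays left out. Requiring a fold change over 2 as well left 0 rising and 3 falling members in MR20, 0 and 8 in DR500, and 2 and 8 in DR500 against MR20. With 1 array left out, rising members numbered 3 to 5 in MR20 and 1 to 2 in DR500 (1 without 4T1 replicate 2, 4T1 replicate 3 or DR500 replicate 1), and falling members 19 to 22 and 21 to 22. Reversed values were all of genes that did not pass: Scap in MR20 (-0.0114 after repeated quantile normalization, and -0.0134 to 0.0449 with 1 array left out, below 0 without 4T1 replicate 2, 4T1 replicate 3 or MR20 replicate 2), Scap in DR500 (-0.0776 to 0.0008 with 1 array left out, above 0 without 4T1 replicate 1) and Insig2 in DR500 (0.0068 after repeated quantile normalization). The replicate block left 22 falling and 2 rising members in DR500 and ended 1 member call, Dhcr7 in MR20 (adjusted p = 0.0509). Centring ended the same call (0.0966). Calls gained under some setting were Idi1, Sc5d and Ebp in MR20, Dhcr7 and Srebf2 in DR500 (Srebf2 at adjusted p = 0.0399 with dim genes filtered out), and Sqle and Mvd in DR500 against MR20 (Sqle at 0.0367 with dim genes filtered out and 0.0448 with trend and robust variances, Mvd at 0.0266 without DR500 replicate 1). The causes were not tested.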
